A study of Homo sapiens with 20 samples.

Results

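The genes described here are 59 regulators of chromatin, named in a fixed list and matched by symbol to the gene IDs under which the authors listed their iCLIP peaks. They are 59 of the 19362 gene IDs that carried a deposited peak in at least 1 of the 16 iCLIP libraries. All 59 carried a U2AF2 peak in some library, 57 carried an hnRNPA1 peak and 51 an SRSF1 peak. In this method, individual-nucleotide-resolution crosslinking and immunoprecipitation, RNA crosslinked to a protein is pulled down with it and sequenced, and a peak is a stretch where reads pile up above the gene's background.

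The study used TREX Flp-In 293T cells, an established human embryonic kidney line, and compared cells with inducible T7-tagged hnRNPA1 (here the overexpression cells) with control cells of the same background. Both were kept under tetracycline for 24 h, and both had been under drug selection for 3 days, with blasticidin in each case, hygromycin for the T7-hnRNPA1 line and zeocin for the control line, so the second drug differed together with the cell line compared. iCLIP was made from nuclear extracts for U2AF2 (3 overexpression and 3 control libraries), hnRNPA1 (2 and 2) and SRSF1 (3 and 3), and polyadenylated RNA was sequenced from whole cells (2 and 2). The labels do not say whether libraries of a group came from separate cultures, so the p-values measure the spread between libraries, which may be technical.

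hnRNPA1 binds pre-mRNA and often represses nearby splice sites. U2AF2 is the large subunit of U2AF, which reads the polypyrimidine tract ahead of a 3' splice site and helps the U2 particle onto the branch point, and SRSF1, of the SR protein family, binds exonic enhancers. The genes studied encode the machinery that writes, reads, erases and moves histone marks and nucleosomes: Polycomb repressive complexes 1 and 2 (PRC1 and PRC2), the SWI/SNF, ISWI and CHD remodellers, histone acetyltransferases and deacetylases, histone methyltransferases and demethylases, and the DNA methylation enzymes. Many are long genes with large introns, and several members of these families are known to be controlled through alternative or incomplete splicing.

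Depth differed between conditions, and in opposite directions for the proteins. U2AF2 libraries held 2317615 to 3657197 reads in peaks with overexpression and 702563 to 1158060 in control cells, hnRNPA1 libraries 549365 and 575471 with overexpression and 2508821 and 2973275 in control cells, and SRSF1 libraries 175293 to 329448 with overexpression and 125082 to 173766 in control cells. The genes of the list took 0.625% to 0.680% of U2AF2 reads with overexpression and 0.751% to 0.846% in control cells, and 0.952% and 0.961% of hnRNPA1 reads with overexpression and 0.768% and 0.806% in control cells. A peak needed at least 6 reads in 15 libraries and 3 reads in U2AF2 overexpression replicate 3. Of 8 markers of the cell line, 4 had a U2AF2 peak, VIM, CDH2, KRT8 and PAX2, while the keratin genes KRT18 and KRT19 and the neurofilament genes NEFM and NEFL had none in any protein. Of 5 blood markers, LYZ and SPI1 had a U2AF2 peak and PTPRC, CD74 and HBB none, and the 3 fibroblast markers had none. The summed U2AF2 signal moved with the groups in both lists, at 41.0 to 75.2 normalised reads with overexpression and 496 to 533 in control cells for the line markers, and at 191 to 210.2 with overexpression and 39.9 to 94.6 in control cells for the blood markers. Its part in the results below was not tested.

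In the overexpression cells, U2AF2 signal was lower over much of the list. Reads in the peaks of each gene were summed per library and scaled by size factors, giving the normalised reads used throughout, and genes with a mean of at least 20 were tested with limma on log2 values. Of 53 members tested, 21 fell and 4 rose, against 21.1% lower and 21.6% higher among the 9179 genes tested. The median log2 change was -0.73 for the members and 0.44 for all genes tested. In 26 of the 53 members (49.1%) every overexpression library lay below every control library, compared with 26.7% of all genes, and in 7 (13.2%) every one lay above, compared with 37.4% of all genes. Leaving out overexpression replicate 1 gave 12 lower and 1 higher members (16.8% and 11% of all genes so tested), leaving out overexpression replicate 2 gave 12 and 2 (17.2% and 11.3%), and leaving out overexpression replicate 3, the library with the lower peak minimum, gave 16 and 2 (21.2% and 16.9%).

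The split depended on the scale. With each library scaled by its total reads in peaks (total-read scaling), 11 of 52 members tested fell and 13 rose, against 12.9% lower and 41.6% higher among all genes so tested. The 11 were EZH2, RBBP7, SMARCE1, ARID1B, SMARCC2, CHD1, CHD2, CHD4, CHD7, KDM1A and BRD2, all among the 21. That scale raised the median of all genes by 0.90 on the log2 scale, and the members' median lay 1.27 below it, compared with 1.18 below it under the size factors. With reads thinned to equal depth, 45 members were tested, 29 fell and 1 rose (33.4% and 26.4% of all genes tested so). Thinned reads scaled by their total gave 17 lower and 7 higher of 42 (19.4% and 51.2% of all genes tested so). Signal in an iCLIP library follows both the amount of a transcript and its binding, and fewer transcripts and less binding per transcript cannot be told apart here.

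PRC2 places the repressive methyl mark on histone H3 tails, and 6 of its 7 listed genes fell in U2AF2 signal, with none higher. This count and those by role below stand beside 21.1% lower and 21.6% higher among all genes tested. Under total-read scaling, 2 of the 6 were still called, EZH2 and RBBP7. EZH2, the catalytic subunit, had 259.9, 299 and 265 reads in the overexpression libraries, against 2867, 3424 and 3124 reads in the control libraries. The 3 overexpression libraries were close together and far below every control library (log2 change -3.51 ± 0.13, adjusted p = 4.95e-05). RBBP7, a histone-binding subunit, had 129, 149 and 132 reads in the overexpression libraries, against 1240.2, 1212 and 1323 reads in the control libraries (log2 change -3.19 ± 0.12, adjusted p = 4.95e-05). EED, which reads the mark and stimulates the enzyme, had 18.8, 13.5 and 13.4 reads in the overexpression libraries, against 127, 32.5 and 109 reads in the control libraries. Control replicate 2 was the lowest control library for EED, still above all 3 overexpression libraries (log2 change -2.28 ± 0.61, adjusted p = 0.0269).

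The other PRC2 genes moved less. RBBP4, the paralogue of RBBP7, averaged 148 ± 3.29 reads with overexpression and 435 ± 137 reads in control cells (SD, n = 3 each; log2 change -1.51 ± 0.23, adjusted p = 0.00332). JARID2, an accessory subunit that helps recruit PRC2, averaged 203 ± 30.3 reads with overexpression and 406 ± 90.4 reads in control cells (log2 change -0.98 ± 0.21, adjusted p = 0.0122). SUZ12, the scaffold, averaged 259 ± 15.3 reads with overexpression and 438 ± 103 reads in control cells (log2 change -0.73 ± 0.19, adjusted p = 0.0221), and under total-read scaling its change was 0.07. EZH1, the alternative catalytic subunit, averaged 96.4 ± 4.27 reads with overexpression and 48.6 ± 26.8 reads in control cells and did not pass (adjusted p = 0.118).

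PRC1 ubiquitylates histone H2A. BMI1, a RING finger partner of its enzyme, had 23.6, 33.7 and 20.4 reads in the overexpression libraries, against 50.2, 168 and 298 reads in the control libraries. Of its reads over all libraries, 8.04% lay in peaks also listed under another gene ID. The control libraries spread widely, but none reached down to the overexpression libraries (log2 change -2.38 ± 0.67, adjusted p = 0.0314). RING1, an enzyme of the complex, averaged 6.90 ± 6.15 reads with overexpression and 35.4 ± 17.4 reads in control cells and did not pass (adjusted p = 0.109). RNF2, its paralogue, had too few reads to be tested.

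SWI/SNF genes went both ways: of 10 tested, 4 fell, 2 rose and 4 did not pass. Among all genes tested 21.1% fell and 21.6% rose, so the 2 that rose are near that share. SMARCE1, a DNA-binding core subunit, had 8.74, 5.19 and 10.5 reads in the overexpression libraries, against 337, 170.4 and 342 reads in the control libraries. Its change was the largest among the members that fell (log2 change -4.93 ± 0.43, adjusted p = 0.000468). ARID1B, a subunit of the BAF form of the complex, had 185, 253 and 277 reads in the overexpression libraries, against 1559, 1184 and 950.4 reads in the control libraries (log2 change -2.35 ± 0.24, adjusted p = 0.000782). SMARCC2, a scaffold subunit, had 53.7, 64.9 and 57.97 reads in the overexpression libraries, against 251, 349 and 286 reads in the control libraries (log2 change -2.30 ± 0.19, adjusted p = 0.000355), and 12.1% of its reads over all libraries lay in peaks also listed under another gene ID. For each of these 3 genes the highest overexpression library lay well below the lowest control library.

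SMARCA2, an ATPase of the complex, also fell, by a smaller margin, averaging 67.5 ± 7.30 reads with overexpression and 112 ± 17.7 reads in control cells (log2 change -0.72 ± 0.22, adjusted p = 0.0387). That call turned with the settings: its log2 change was 0.08 under total-read scaling and 3.15 with only peaks of at least 12 reads. The 2 genes that rose, PBRM1 and ARID2, encode subunits of the PBAF form. PBRM1 had 354, 357 and 309 reads in the overexpression libraries, against 198, 181 and 189 reads in the control libraries (log2 change 0.84 ± 0.12, adjusted p = 0.00285). ARID2 had 319, 316 and 317 reads in the overexpression libraries, against 221, 224 and 187 reads in the control libraries (log2 change 0.59 ± 0.13, adjusted p = 0.0117). The groups did not overlap for either gene, but at equal depth only PBRM1 was still called, and ARID2 had a log2 difference of -0.21 ± 0.13, adjusted p = 0.206.

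The remaining SWI/SNF genes did not pass or were not tested. SMARCA4, the alternative ATPase, averaged 213 ± 4.11 reads with overexpression and 99.2 ± 50.7 reads in control cells (adjusted p = 0.0611). SMARCC1, the paralogue of SMARCC2, averaged 186 ± 6.80 reads with overexpression and 211 ± 52.1 reads in control cells (adjusted p = 0.544), but it fell at equal depth (-1.76 ± 0.34, adjusted p = 0.00557). ARID1A, the paralogue of ARID1B, averaged 156 ± 24.9 reads with overexpression and 104 ± 45.6 reads in control cells (adjusted p = 0.175). SMARCD1 had a change of -3.43 ± 1.21 (adjusted p = 0.0634), and SMARCB1 had too few reads to be tested.

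**Figure D1:**
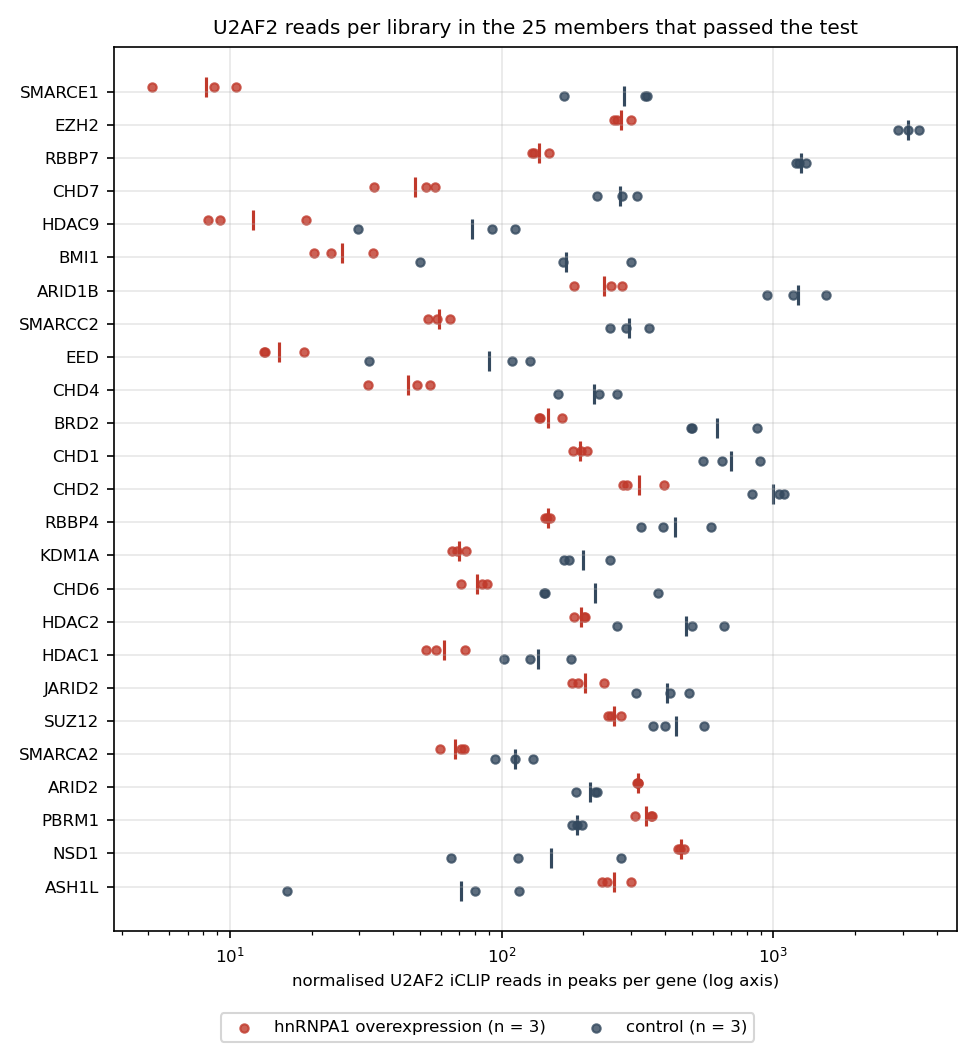
Normalised U2AF2 iCLIP reads in peaks per gene (log axis) in each of the 3 overexpression libraries (red) and 3 control libraries (dark) for the 25 members that passed the test, with ticks at the group means, ordered by log2 change. EZH2 lies between 259.9 and 299 reads with overexpression and between 2867 and 3424 in control cells, and the 4 members at the bottom, ARID2, PBRM1, NSD1 and ASH1L, are higher with overexpression.

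Among the ISWI and CHD remodellers, ATPases that slide or space nucleosomes, 5 of 9 genes fell and none rose (21.1% and 21.6% of all genes). CHD7, a remodeller of developmental enhancers, had 34.1, 52.9 and 56.7 reads in the overexpression libraries, against 316, 224 and 278 reads in the control libraries (log2 change -2.50 ± 0.26, adjusted p = 0.000847). CHD4, the ATPase of the NuRD deacetylase complex, had 32.3, 48.8 and 54.5 reads in the overexpression libraries, against 227, 265 and 161 reads in the control libraries (log2 change -2.25 ± 0.30, adjusted p = 0.00195). For both genes every overexpression library was well below every control library. CHD1, which acts with elongating polymerase, averaged 195 ± 11.02 reads with overexpression and 697 ± 175 reads in control cells (log2 change -1.81 ± 0.20, adjusted p = 0.000958). CHD2 averaged 322 ± 65.1 reads with overexpression and 994 ± 141 reads in control cells (log2 change -1.63 ± 0.19, adjusted p = 0.00124), and CHD6 averaged 81.5 ± 9.05 reads with overexpression and 221 ± 134 reads in control cells (log2 change -1.28 ± 0.40, adjusted p = 0.0455). The CHD6 control libraries had 375, 143 and 144 reads, and its call held in 8 of the 18 alternatives that tested it. CHD3, CHD8, CHD9 and SMARCA5 did not pass, with estimates from -1.41 ± 0.47 for CHD8 to -0.68 ± 0.42 for CHD9. At equal depth CHD8 and CHD9 fell.

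Deacetylases remove acetyl groups from histones, and 3 of 5 fell (21.1% of all genes), none of which was called under total-read scaling. HDAC9, a class IIa enzyme, had 9.17, 8.30 and 19.1 reads in the overexpression libraries, against 112, 29.7 and 91.9 reads in the control libraries (log2 change -2.47 ± 0.67, adjusted p = 0.0282), and 10.5% of its reads over all libraries lay in peaks also listed under another gene ID. It had too few reads to be tested at equal depth. HDAC1 averaged 61.3 ± 10.9 reads with overexpression and 137 ± 39.7 reads in control cells (log2 change -1.12 ± 0.28, adjusted p = 0.0212), and its close paralogue HDAC2 averaged 196 ± 9.61 reads with overexpression and 475 ± 197 reads in control cells (log2 change -1.18 ± 0.33, adjusted p = 0.0309). HDAC3 and HDAC4 did not pass (adjusted p = 0.426 and 0.117). BRD2, a bromodomain protein that binds acetylated histones, fell as well, averaging 148 ± 16.7 reads with overexpression and 623 ± 213 reads in control cells (log2 change -2.02 ± 0.25, adjusted p = 0.00154).

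The acetyltransferase genes showed no call: EP300, CREBBP, KAT2B, KAT6A and KAT6B had estimates between -0.88 ± 0.55 for KAT2B and 0.32 ± 0.40 for KAT6B, and KAT2A had too few reads. At equal depth EP300, CREBBP, KAT6A and KAT6B fell. Of the 5 methyltransferases, 2 rose and none fell (21.6% and 21.1% of all genes). NSD1, which methylates histone H3 in transcribed genes, had 469, 447 and 454 reads in the overexpression libraries, against 64.96, 276 and 114 reads in the control libraries (log2 change 1.83 ± 0.50, adjusted p = 0.028). ASH1L, of the same enzyme family, had 299, 234 and 244 reads in the overexpression libraries, against 79.7, 16.2 and 116 reads in the control libraries (log2 change 2.24 ± 0.70, adjusted p = 0.0447). The groups did not overlap for either, although control cells spread over a wide range, and at equal depth neither passed: NSD1 had a log2 difference of 1.36 ± 0.53, adjusted p = 0.0632, and ASH1L one of 1.04 ± 0.70, adjusted p = 0.234.

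SETD2, NSD2 and SETDB1 did not pass. NSD2 was nearly level, averaging 401 ± 16.8 reads with overexpression and 419 ± 24.03 reads in control cells (log2 change -0.06 ± 0.11, adjusted p = 0.652), although it fell at equal depth. Of 6 demethylases, only KDM1A, which removes methyl groups from histone H3, fell, averaging 69.6 ± 4.22 reads with overexpression and 199 ± 44.8 reads in control cells (log2 change -1.49 ± 0.21, adjusted p = 0.00241). The estimates of the other 5 lay between -0.30 ± 0.44 for KDM4C and 0.44 ± 0.34 for KDM2A. KDM4C, with 14.9% of its reads in peaks also listed under another gene ID, fell at equal depth. Of the DNA methylation genes, DNMT1, the maintenance methyltransferase, averaged 441 ± 78.7 reads with overexpression and 545 ± 178 reads in control cells and did not pass, nor did DNMT3B and TET1, and DNMT3A, TET2 and TET3 were not tested.

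In a further list of 109 chromatin regulators outside the 59, chosen with earlier results known, 77 were tested in U2AF2, of which 21 fell and 10 rose, against 21.1% lower and 21.6% higher among all genes tested, with a median log2 change of -0.12 against 0.44. The largest falls were in BRD9, MBD1, HELLS and SUV39H2. BRD9, a SWI/SNF bromodomain subunit, averaged 24.6 ± 15.3 reads with overexpression and 292 ± 37.9 reads in control cells (log2 change -3.67 ± 0.43, adjusted p = 0.00124). HELLS, a remodeller needed for DNA methylation, averaged 699 ± 11.7 reads with overexpression and 5453 ± 293 reads in control cells (log2 change -2.96 ± 0.12, adjusted p = 5.82e-05). SUV39H2, a histone H3 methyltransferase, averaged 118 ± 17.9 reads with overexpression and 767 ± 122 reads in control cells, and MBD1, which binds methylated DNA, averaged 7.33 ± 7.73 reads with overexpression and 61.5 ± 38.8 reads in control cells. The largest rises were in ASXL2, KDM4B, CTCF and HAT1. KDM4B, a demethylase, averaged 176 ± 8.96 reads with overexpression and 42.9 ± 9.30 reads in control cells, and CTCF, the insulator protein, averaged 82.8 ± 11.2 reads with overexpression and 29.03 ± 6.63 reads in control cells.

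Single sites within the genes were examined next. Overlapping peaks of a gene were merged into sites across libraries, and 88 U2AF2 sites in 29 members had a mean of at least 20 normalised reads. In the test 55 fell and 10 rose (5 rose without any 1 of the overexpression libraries), against 38.3% lower and 20.7% higher among all 13979 sites tested. At equal depth 46 were tested, 37 fell and 6 rose (47.4% and 26.7% of all sites tested so). These counts include sites that entered the test through 1 condition alone: 39 of the 88 (44.3%, against 26% of all sites) had no listed peak in any overexpression library, and 3 (3.41%, against 4.77%) had none in any control library, so their direction was fixed by the filter. Of the 46 sites with a peak in both conditions, 28 fell and 7 rose, against 30.3% lower and 24% higher among all 9676 such sites. The median log2 change of these 46 was -3.16, against 0.49 for all such sites. Coordinates are those of the deposited files, build hg19, and whether a site is exonic or intronic was not analysed here.

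EZH2 held 24 of the 88 sites. Of these 19 fell, 14 had no peak in any overexpression library and none rose. Its site with the most reads, chr7:148518008-148518631 on the minus strand, had 6.12, 0 and 4.14 reads in the overexpression libraries, against 269, 316 and 324 reads in the control libraries (adjusted p = 0.00103). The 19 sites lay within chr7:148514030-148523568, a window of 9.54 kb in a peak span of 75.9 kb, but all 24 tested sites lay within 10.85 kb of that span, so the window says little about where in the gene the signal fell. Windows of this kind were drawn after the values were seen, from the first to the last lower site of genes with at least 3, so their totals are given without a test. The remainder of the gene leaves out the lower sites by construction, and its level depends on the scale. It also depends on depth, since the U2AF2 control libraries were the shallower ones and list only peaks of at least 6 reads. Inside the EZH2 window U2AF2 had 120.2 ± 21.5 reads with overexpression and 2869 ± 143 reads in control cells (SD, n = 3 each), and outside it 154 ± 2.44 reads with overexpression and 269 ± 168 reads in control cells. The window held 39.7% to 48.3% of the gene's reads in the overexpression libraries and 88.6% to 97.3% in the control libraries.

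In CHD2, where 3 of 5 tested sites had no peak in any overexpression library, the 3 lower sites lost nearly all their reads. They lay within chr15:93443783-93445985, 2.20 kb of a 144-kb span on the plus strand. Inside this window U2AF2 had 1.98 ± 2.41 reads with overexpression and 659.9 ± 105 reads in control cells, and outside it 319.6 ± 65.6 reads with overexpression and 334 ± 73.9 reads in control cells. The strongest site, chr15:93444831-93445603, had 0, 0 and 0 reads in the overexpression libraries, against 399, 311 and 238 reads in the control libraries. In RBBP4, within chr1:33145040-33146236 U2AF2 had 16.3 ± 8.47 reads with overexpression and 344 ± 17.8 reads in control cells, and outside 132 ± 11.4 reads with overexpression and 90.6 ± 129.8 reads in control cells.

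All 6 tested sites of RBBP7 fell, but 3 of them had no peak in any overexpression library, so the direction of those 3 was fixed by the filter. The RBBP7 sites spread over 14.2 kb of a 25.8-kb span (chrX:16862769-16877004, minus strand). Its strongest site, chrX:16870667-16870921, had 3.06, 0 and 0 reads in the overexpression libraries, against 354, 354 and 369 reads in the control libraries (adjusted p = 0.000165). The window had 113 ± 7.31 reads with overexpression and 1222 ± 47.5 reads in control cells. In ARID1B, whose peaks span 431 kb, 3 lower sites lay within chr6:157258755-157270030 on the plus strand, where U2AF2 had 25.4 ± 9.57 reads with overexpression and 449 ± 104 reads in control cells. Reads outside that window were also lower, 213 ± 44.3 reads with overexpression and 782 ± 248 reads in control cells. Of the 6 tested ARID1B sites, 4 had no peak in any overexpression library.

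SUZ12 and DNMT1 had lower sites beside a remainder that was higher by its means. Weak peaks in that remainder could be listed in the deeper overexpression libraries alone, so it does not show a gain of binding. The 3 tested SUZ12 sites were all inside its window. Of the 5 tested DNMT1 sites, 2 had no peak in any overexpression library, as had 2 of the 4 tested BRD2 sites. In SUZ12, 3 sites without any overexpression peak lay within chr17:30265476-30274703 on the plus strand, and the window had 96.5 ± 17.3 reads with overexpression and 336 ± 98.8 reads in control cells. Outside it U2AF2 had 162 ± 10.7 reads with overexpression and 102 ± 6.44 reads in control cells. In DNMT1, 4 of 5 sites fell within chr19:10270691-10287893 on the minus strand, with 187 ± 16.7 reads with overexpression and 409 ± 130.5 reads in control cells inside and 254 ± 62.8 reads with overexpression and 136 ± 67.95 reads in control cells outside. BRD2 had 3 lower sites within chr6:32944717-32949143 on the plus strand, with 99.6 ± 18.6 reads with overexpression and 458 ± 233 reads in control cells inside.

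**Figure D2:**
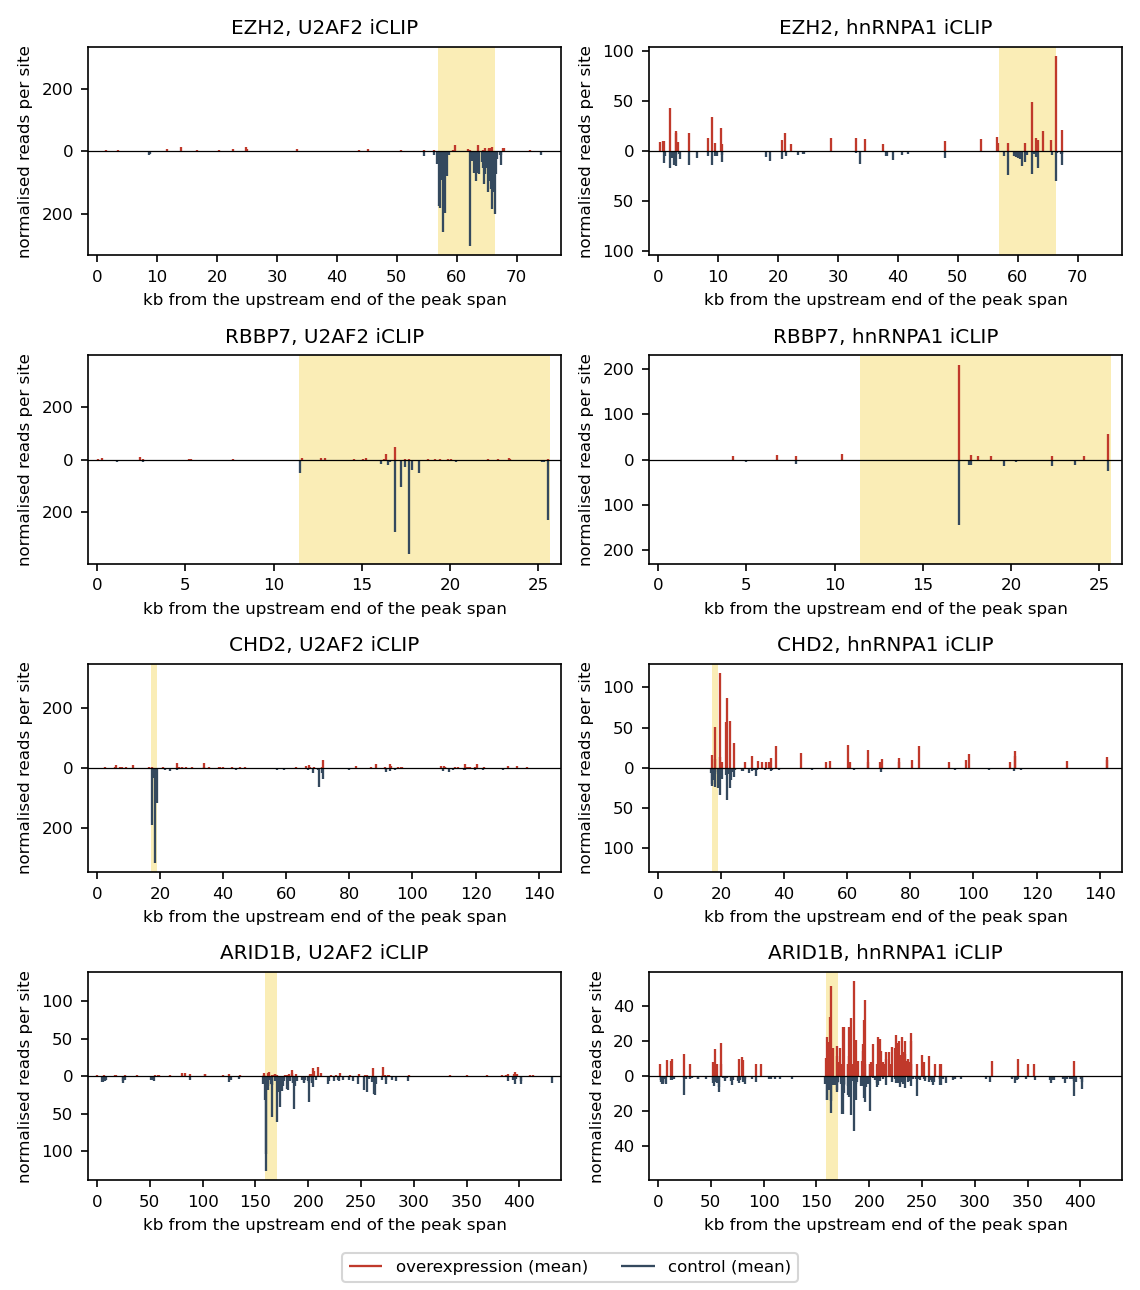
Mean normalised reads per merged site along EZH2, RBBP7, CHD2 and ARID1B, in U2AF2 (left) and hnRNPA1 (right) iCLIP, with overexpression upward in red and control downward in dark, against distance in kb from the upstream end of the gene's peak span. The yellow band runs from the first to the last U2AF2 site that fell, which in EZH2 held 120 ± 21.5 reads with overexpression and 2869 ± 143 in control cells.

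The site with the most reads is given next for SMARCE1, SMARCC2, CHD4 and BMI1, which also fell. In genes that fell, that site is picked mainly by its control reads, so a lower value there is no separate support. The SMARCE1 site chr17:38800901-38801169 on the minus strand had 0, 0 and 0 reads in the overexpression libraries, against 35.4, 78.4 and 55.5 reads in the control libraries. The SMARCC2 site chr12:56556724-56557234 on the minus strand had 3.06, 0 and 2.23 reads in the overexpression libraries, against 70.9, 173 and 127 reads in the control libraries. The CHD4 site chr12:6696216-6696484 on the minus strand had 5.68, 7.78 and 4.78 reads in the overexpression libraries, against 91.5, 64.9 and 32.95 reads in the control libraries. The SMARCC2 and CHD4 sites passed the test, while the SMARCE1 site, like the CHD2 site above, entered it through the control libraries alone. The BMI1 site chr10:22615601-22615928 on the plus strand had no overexpression peak, but also none in control replicate 1, and did not pass (adjusted p = 0.105).

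The 10 sites that rose lay in 8 genes, and 3 of them had no listed control peak. In PBRM1 all 3 tested sites rose, and the strongest, chr3:52619698-52619845 on the minus strand, had 124, 108 and 99.7 reads in the overexpression libraries, against 41.3, 51.4 and 36.4 reads in the control libraries (log2 change 1.35 ± 0.19, adjusted p = 0.00195). The SETD2 site chr3:47147174-47147384 on the minus strand had 58.1, 53.5 and 50.96 reads in the overexpression libraries, against 0, 0 and 0 reads in the control libraries. The NSD1 site chr5:176614281-176614409 on the plus strand had 44.1, 46.7 and 36.95 reads in the overexpression libraries, against 0, 0 and 0 reads in the control libraries. Neither site had a listed control peak, nor did the HDAC2 site chr6:114259044-114259305 on the minus strand, which had 64.7, 47.7 and 44.9 reads in the overexpression libraries, against 0, 0 and 0 reads in the control libraries. Only peaks of at least 6 reads are listed for the control libraries, so these 3 sites passed the filter only through the overexpression libraries, and no fold or test is given for them. The ARID2 site chr12:46289509-46289619 on the plus strand had 65.96, 70.6 and 60.5 reads in the overexpression libraries, against 0, 0 and 29.5 reads in the control libraries (adjusted p = 0.0471). NSD2, level in total, had 1 site higher and 1 lower. The lower NSD2 site had no listed overexpression peak, so its direction was fixed by the filter. SMARCA4 and KDM4C each had 1 site higher.

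**Figure D3:**
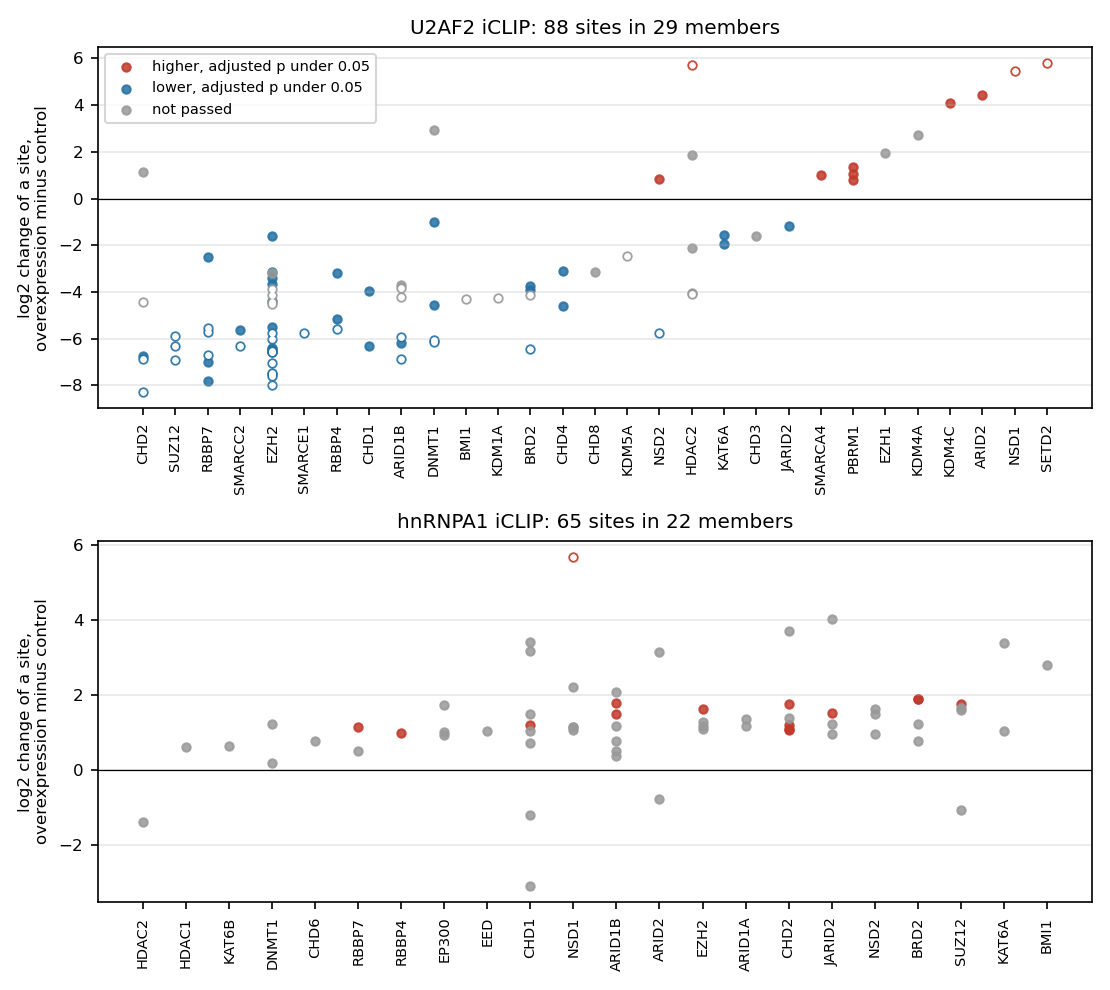
Log2 change (overexpression minus control) of each tested site, by gene in order of the gene's median, for U2AF2 (88 sites in 29 members) and hnRNPA1 (65 sites in 22 members). Filled circles have a peak in both conditions, circles with a white centre lack one in every library of 1 condition, so that their height depends on the pseudocount. U2AF2 sites are mostly below 0 and hnRNPA1 sites mostly above.

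hnRNPA1 signal changed in fewer members, and mainly upward. Of 54 members tested, 5 rose and 2 fell, against 3.01% higher and 5.62% lower among 6869 genes. The median log2 change was 0.22 for the members and -0.39 for all genes. In 26 members (48.1%) both overexpression libraries lay above both control libraries, compared with 25% of all genes, and in 12 (22.2%) both lay below, compared with 44%. At equal depth 41 members were tested, 10 rose and none fell (9.18% and 7.68% of all genes tested so). The 5 members that rose under the full reads were among these 10, and the others were SUZ12, SMARCC1, EP300, ASH1L and KDM2A. With the lone remaining library assumed to vary like the others, leaving out either control library gave no call among the members or in any gene tested, with 13 members at an unadjusted p under 0.05 in limma each time. Leaving out overexpression replicate 1 gave 8 higher and 8 lower members (9.8% and 30% of all genes tested so), and overexpression replicate 2 gave 12 and 8 (10.8% and 36.8%). The line markers summed to 542 and 734 hnRNPA1 reads with overexpression and to 336 and 390.5 in control cells. The blood markers went the other way, at 0 and 18.2 with overexpression and 45.5 and 49.4 in control cells. The part of either list in these counts was not tested.

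NSD1 had 524 and 527 reads in the overexpression libraries, against 207 and 194 reads in the control libraries. The overexpression libraries nearly coincided and stood far above the controls (log2 change 1.39 ± 0.11, adjusted p = 0.00894). KAT6B, a histone acetyltransferase, had 483 and 433 reads in the overexpression libraries, against 235 and 189.5 reads in the control libraries (log2 change 1.11 ± 0.17, adjusted p = 0.0433). CHD2 had 895 and 739.9 reads in the overexpression libraries, against 399.8 and 390.1 reads in the control libraries (log2 change 1.04 ± 0.14, adjusted p = 0.0326). CHD6 had 407 and 411 reads in the overexpression libraries, against 233 and 224 reads in the control libraries (log2 change 0.84 ± 0.11, adjusted p = 0.0322), and JARID2 had 818 and 878 reads in the overexpression libraries, against 431 and 514 reads in the control libraries (log2 change 0.85 ± 0.13, adjusted p = 0.0492). In each of these 5 genes both overexpression libraries exceeded both control libraries, which adds no support, since the genes were picked by the test on these values.

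SMARCA2 fell in hnRNPA1 signal, with 36.1 and 56.7 reads in the overexpression libraries, against 207 and 202 reads in the control libraries (log2 change -2.15 ± 0.31, adjusted p = 0.0399). KAT2B, an acetyltransferase of the SAGA type, had no deposited peak in either overexpression library, against 70.1 and 43.7 reads in the control libraries. It entered the test through the control libraries alone, so it had to come out lower, and without it 1 member, SMARCA2, fell. No fold or p is given for KAT2B, since only peaks of at least 6 reads are listed and the overexpression libraries were the shallower ones. Neither gene was called at equal depth: SMARCA2 had a log2 difference of -1.44 ± 0.45, adjusted p = 0.0696, and KAT2B had too few reads.

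**Figure D4:**
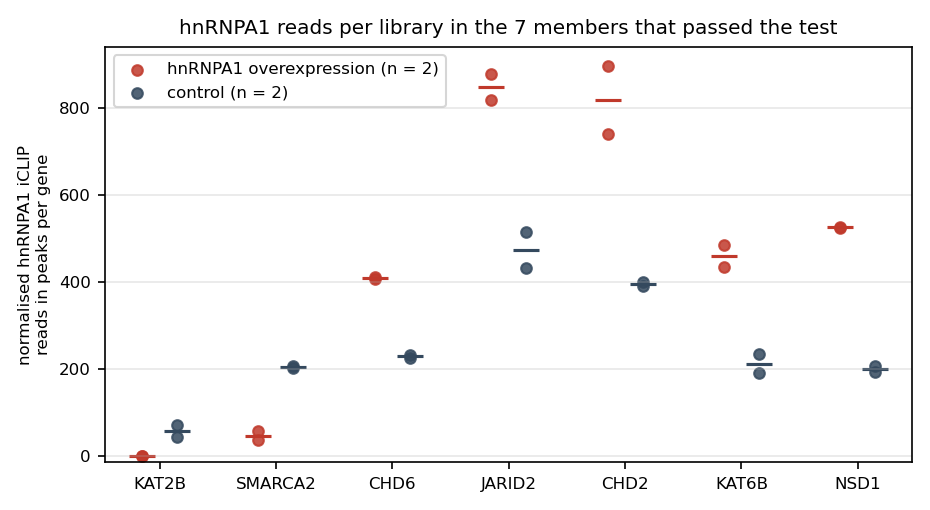
Normalised hnRNPA1 iCLIP reads in peaks per gene in each of the 2 overexpression libraries (red) and 2 control libraries (dark) for the 7 members that passed the test, with bars at the group means. KAT2B and SMARCA2 are lower with overexpression, KAT2B without any peak, and CHD6, JARID2, CHD2, KAT6B and NSD1 are higher.

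The other 47 tested members did not pass for hnRNPA1. Among the PRC2 genes, EZH2 averaged 589 ± 58.9 reads with overexpression and 419 ± 28.5 reads in control cells (SD, n = 2 each; adjusted p = 0.117), and SUZ12 averaged 502 ± 76.8 reads with overexpression and 241 ± 26.1 reads in control cells (adjusted p = 0.054). EP300 averaged 365 ± 86.01 reads with overexpression and 150.1 ± 4.02 reads in control cells (adjusted p = 0.0567), and BRD2 averaged 404 ± 44.7 reads with overexpression and 227 ± 23.00 reads in control cells (adjusted p = 0.0675). ARID1B, with 1330.5 ± 23.3 reads with overexpression and 849.8 ± 299 reads in control cells, also did not pass. CHD3, DNMT3A and DNMT3B had too few reads, and RING1 and KAT2A had no hnRNPA1 peak in any library. In the further list of 109 regulators, 68 were tested, 5 rose and none fell, against 3.01% higher and 5.62% lower among all genes, with ASXL1 (1.96 ± 0.24), PCGF6 (1.90 ± 0.25), ASXL2 (1.87 ± 0.26) and BAZ1B (1.49 ± 0.19) leading by log2 change. ASXL1 and ASXL2 are partners of a histone H2A deubiquitylase, and PCGF6 is a PRC1 subunit.

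At single sites, 15 of 65 hnRNPA1 sites in the members rose and none fell, against 19.7% and 3.68% of all 10002 sites, so the share of 23.1% higher is near that of all sites. At equal depth, where 11.6% of all sites rose and 5.54% fell, 12 were left to test and none passed in limma, 4 of them at an unadjusted p under 0.05. Leaving out either control library left no call at any site of any gene (14 and 17 of the members' sites were at an unadjusted p under 0.05 in limma). Leaving out overexpression replicate 1 gave 12 lower sites of 131 (17.5% of all sites), and overexpression replicate 2 gave 11 of 113 (20.9%). Some of the 15 sites that rose under the full reads lay inside the U2AF2 windows above. The EZH2 site chr7:148514034-148514132 had 103 and 86.2 reads in the overexpression libraries, against 29.1 and 30.8 reads in the control libraries (log2 change 1.63 ± 0.15, adjusted p = 0.019). The RBBP4 site chr1:33145508-33145757 had 156 and 129 reads in the overexpression libraries, against 67.3 and 73.6 reads in the control libraries (log2 change 1.00 ± 0.14, adjusted p = 0.0265). The RBBP7 site chrX:16862913-16863043 had 57.7 and 54.5 reads in the overexpression libraries, against 24.3 and 24.8 reads in the control libraries (log2 change 1.16 ± 0.16, adjusted p = 0.0251). In all 3 both overexpression libraries were above both control libraries, which adds no support, since the sites were picked by the test on these values. The RBBP7 site with the most reads, chrX:16870991-16871757, also inside its window, did not pass in limma (adjusted p = 0.176). It had 173 and 245 reads in the overexpression libraries, against 137 and 153 reads in the control libraries. Of the tested hnRNPA1 sites, 1 of 4 rose in EZH2, 1 of 2 in RBBP7 and 1 of 1 in RBBP4.

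Summed over the whole windows, the hnRNPA1 means of the groups lay closer together in proportion than at the called sites. Those sites were picked for their difference, so no conclusion is drawn from this. In the EZH2 window hnRNPA1 had 216 ± 35.3 reads with overexpression and 164 ± 8.79 reads in control cells (n = 2 each), and in the RBBP7 window 306 ± 31.99 reads with overexpression and 251 ± 0.461 reads in control cells. In the RBBP4 window it had 166 ± 51.4 reads with overexpression and 152 ± 4.16 reads in control cells. The CHD2 window went the other way by its means, 77.3 ± 13.1 reads with overexpression and 126 ± 23.7 reads in control cells, whereas the rest of CHD2 had 740.0 ± 96.5 reads with overexpression and 269 ± 16.8 reads in control cells. The SUZ12 window was also lower by its means, 74.5 ± 67.95 reads with overexpression and 84.6 ± 17.7 reads in control cells. The ARID1B, BRD2 and DNMT1 windows were higher by theirs. The CHD2 site chr15:93446424-93446777, just downstream of the U2AF2 window, had 108 and 127 reads in the overexpression libraries, against 31.1 and 36.3 reads in the control libraries (log2 change 1.77 ± 0.15, adjusted p = 0.019). These window values are descriptions without a test.

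For SRSF1, the shallowest protein, 18 members could be tested and none passed, compared with 3.69% higher and 0.907% lower among 1544 genes. At an unadjusted p under 0.05 there were 2, and no member was called by the voom fit either. At equal depth 8 members were tested and none passed, 1 of them at an unadjusted p under 0.05 (7.37% higher and 2.97% lower among all genes tested so). The 4 members with the most SRSF1 reads were RBBP7, BRD2, CHD4 and EZH2. RBBP7 had 69.3, 153 and 225 reads in the overexpression libraries, against 142, 159.5 and 158 reads in the control libraries. BRD2 had 73.8, 121 and 114 reads in the overexpression libraries, against 133, 231 and 131 reads in the control libraries. CHD4 had 83.8, 65.9 and 84.4 reads in the overexpression libraries, against 92.6, 154 and 49.6 reads in the control libraries. The groups overlapped for RBBP7 and CHD4, and for BRD2 all 3 overexpression libraries were below the controls without passing (log2 change -0.66 ± 0.33, adjusted p = 0.253).

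EZH2 had 58.1, 119 and 109 reads in the overexpression libraries, against 86.9, 45.8 and 23.2 reads in the control libraries, with overlapping groups and a positive estimate (log2 change 0.99 ± 0.53, adjusted p = 0.276). SMARCC1 had a log2 difference of -1.67 ± 0.50 (adjusted p = 0.107) and RBBP4 one of -1.04 ± 0.34 (adjusted p = 0.13), the lowest p-values among the members. With the filter set to a peak in every library, or in at least 50% of libraries, 1 member was called lower. No SRSF1 peak was listed for RNF2, SMARCA2, HDAC4, KAT2B, KDM4C, DNMT3B, TET1 or TET2. A difference in these genes was not detectable at this depth. None of 20 tested genes of the further list passed.

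Whether U2AF2 responded differently from the other proteins was tested directly, as the interaction of protein and condition. Against SRSF1, 18 members were tested, 6 had the lower response in U2AF2 and 1 the higher, against 33.9% and 12.5% of 1520 genes. Of the members that passed, EZH2 differed most, by -4.50 ± 0.58 on the log2 scale (adjusted p = 0.000115), followed by RBBP7 (-3.00 ± 0.47) and CHD2 (-2.90 ± 0.59). SMARCC1 was the 1 member with the higher response, with a difference of 1.52 ± 0.43. Its mean of 20.07 SRSF1 reads lay just above the limit of 20. At equal depth, or without SRSF1 control replicate 1, 2 or 3, it no longer passed the filter and could not be tested. It was called in all 15 alternatives that tested it. Under total-read scaling the split was 3 lower and 4 higher (22.7% and 27.6% of all genes), and at equal depth it was 5 lower and 0 higher of 8 tested (48% and 12.1% of all genes tested so).

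Against hnRNPA1, 50 members were tested, 18 had the lower response in U2AF2 and 5 the higher, against 18.6% and 21.6% of 6380 genes. EZH2 (-3.99 ± 0.19), SMARCE1 (-3.59 ± 0.86), RBBP7 (-3.50 ± 0.22), ARID1B (-3.05 ± 0.40) and EED (-3.01 ± 0.86) had the largest negative differences among the members that passed. The 5 with a higher response in U2AF2 were EZH1 (2.49 ± 0.85), SMARCA4 (2.40 ± 0.70), PBRM1 (2.20 ± 0.30), SMARCA2 (1.43 ± 0.40, about 0 at equal depth) and KAT2B, which had no hnRNPA1 peak with overexpression. KAT2B passed the hnRNPA1 filter through the control libraries alone, so 4 others carry this count. EZH1 (adjusted p = 0.0466) was called in 8 of the 15 alternatives that tested it. Under total-read scaling the split was 12 lower and 11 higher (10.3% and 35.7% of all genes), and at equal depth it was 27 lower and 2 higher of 39 tested (42.8% and 20.5% of all genes tested so). Leaving out either hnRNPA1 control library left 1 higher, and leaving out U2AF2 overexpression replicate 1 or 2 left 3.

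Splicing of the members was read from the authors' deposited table of skipped exons, which lists 251 events each past 0.33 in difference of inclusion and 5 in Bayes factor for at least 1 pair of an overexpression and a control library. Of these, 3 lay within the peak span of a member, in CHD1, RBBP4 and SMARCA4, and were matched by position. The CHD1 event, chr5:98204199-98205586, had inclusion of 0.34 and 0.25 with overexpression and 0.75 in the 1 control library with a value, in the authors' deposited table. The Bayes factors of its 2 pairs were 2.06 and 6.69. U2AF2 averaged 8.76 ± 4.67 reads with overexpression over this event and had no listed peak there in any control library. The U2AF2 control libraries were the shallower ones and list only peaks of at least 6 reads, so a control signal at that level could go unlisted. No difference in binding at this event can be read from these values.

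The RBBP4 event, chr1:33117515-33134455, had inclusion of 0.89 and 0.92 with overexpression and 0.43 and 0.89 in control cells, in the authors' deposited table. The overexpression libraries were close to 1 control library and far from the other, and the Bayes factors ran from 0.21 to 30.6. The SMARCA4 event, chr19:11145590-11152236, had inclusion of 0.05 and 0.03 with overexpression and 0.44 and 0.01 in control cells, in the authors' deposited table, with Bayes factors from 0.06 to 5.29. For RBBP4 and SMARCA4 the listing therefore rested on control replicate 1. U2AF2 had 54.7 ± 4.78 reads with overexpression and 50.1 ± 60.9 reads in control cells over the RBBP4 event, and 7.28 ± 2.97 reads with overexpression and 35.00 ± 31.4 reads in control cells over the SMARCA4 event, both with overlapping or widely spread controls. The table gave no event inside the windows of EZH2, RBBP7, CHD2 or ARID1B. Events below its limits were not analysed here.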

How the data were processed

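Each iCLIP library was deposited as a list of peaks per gene. Per the file headers, the authors called them with CLIPper in pre-mRNA mode after a repeat filter, and the submitters' processing notes name TopHat and Bowtie2 and build hg19. Each peak carries the authors' read count and a deposited p-value, which was not used to choose peaks. The authors' deposited table of skipped exons gives inclusion as a fraction and Bayes factors as a ratio, per its header.

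Gene symbols were matched for 17814 of 19362 gene IDs (92.0%). Of the members' 10324 peaks, 77 (0.746%) were also listed under another gene ID. Reads were summed per gene and library, divided by median-of-ratios size factors within each protein and tested as log2(reads + 1) with limma 3.58.1 in R 4.3.3 (trend, condition only), for genes with a mean of at least 20 normalised reads, with Benjamini-Hochberg adjustment over all genes and a threshold of 0.05. Values after ± are SE for log2 changes and SD for reads. Scripts were tested on simulated data. Values in every library are given for up to 10 called members in each direction by size of change, or the 4 with the most reads where fewer than 4 were called. Called members and sites were picked on these same values, so groups that do not overlap in them add no support. The members and lists were chosen with earlier results of these data known. Intervals cover the spread between libraries only, and gene-level RNA-seq values were not analysed here.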

Additional observations from a re-analysis of the deposited data

Results flagged for a closer look

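For 30 pairs of a member and a protein, the response of U2AF2 to hnRNPA1 overexpression differed from that of another protein in the limma interaction test, adjusted over all genes tested. Against SRSF1 the calls were 6 lower and 1 higher of 18 members (33.9% lower and 12.5% higher of all genes), and against hnRNPA1 18 lower and 5 higher of 50 (18.6% and 21.6%), so the count against SRSF1 is near that of all genes for lower responses. Values are the log2 change in U2AF2 minus the log2 change in the other protein.

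Against SRSF1, the difference was -4.50 for EZH2, -3.00 for RBBP7, -2.90 for CHD2, -2.05 for CHD4, -1.80 for SMARCC2 and -1.37 for BRD2, and 1.52 for SMARCC1. EZH2, RBBP7 and CHD2 were also called with total reads as the scale. SMARCC2 (adjusted p = 0.0499 in limma) was called in only 4 of the 18 alternatives that tested it, and BRD2 in 11 of 19, compared with all 19 for EZH2.

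Against hnRNPA1, the PRC2 genes had differences of -3.99 (EZH2), -3.50 (RBBP7), -3.01 (EED), -2.06 (RBBP4), -1.83 (JARID2) and -1.78 (SUZ12), and EZH1 one of 2.49. The SWI/SNF genes had -3.59 (SMARCE1), -3.05 (ARID1B), -2.37 (SMARCC2) and -0.96 (SMARCC1), and in the other direction 2.40 (SMARCA4), 2.20 (PBRM1) and 1.43 (SMARCA2). The CHD genes had -2.96 (CHD4), -2.67 (CHD2), -2.32 (CHD7), -2.12 (CHD1) and -2.11 (CHD6). BRD2 had -2.85, EP300 -1.43 and KDM1A -1.28. EP300 and SMARCC1 were each called in 7 of the 17 alternatives that tested them, and EZH1 in 8 of 15. KAT2B had a fitted difference of 4.93, which is no measure of size because it had no hnRNPA1 peak with overexpression.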

How the results depend on the processing

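Main counts of members are 21 lower and 4 higher in U2AF2, 2 lower and 5 higher in hnRNPA1 and none in SRSF1, with 55 lower and 10 higher U2AF2 sites, 15 higher hnRNPA1 sites, and differences in response of 6 lower and 1 higher against SRSF1 and 18 lower and 5 higher against hnRNPA1. With total reads as the scale, U2AF2 gave 11 lower and 13 higher, the response against SRSF1 gave 3 lower and 4 higher, and that against hnRNPA1 gave 11 higher. Thinned to equal depth, U2AF2 gave 1 higher gene and 6 higher sites, hnRNPA1 gave 0 lower and 10 higher genes and 0 higher sites, and the higher differences in response numbered 0 against SRSF1 and 2 against hnRNPA1. Thinning and total reads together, chosen after seeing the data, gave 7 higher in U2AF2 and 0 lower in hnRNPA1. The number of peaks per gene gave 5 lower and 5 higher in U2AF2, and 1 higher in hnRNPA1. By that number the members' median log2 change in U2AF2 was 0.016 (0.19 for all genes), compared with -0.73 by reads (0.44 for all genes). For hnRNPA1, no filter gave 4 lower and 8 higher, a peak in 50% of libraries 5 and 9, a peak in every library 11 higher, peaks of at least 12 reads 7 lower and 3 higher, and voom weights 0 lower. A peak in 50% or in every library gave 1 lower member in SRSF1, and 2 and 3 higher against SRSF1. The cause of these moves was not tested.

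Replicate numbers did not pair the libraries: same-numbered libraries had deviations correlated at -0.0693 to 0.0143 in SRSF1, -0.00764 to 0.00726 in U2AF2 and 0.00269 in hnRNPA1. The replicate block gave 0 lower and 0 higher genes and 0 higher sites in hnRNPA1, and 3 higher in the response against hnRNPA1.

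Leaving out each library in turn, U2AF2 gave 12 to 23 lower and 1 to 6 higher genes and 5 to 13 higher sites, hnRNPA1 0 to 8 lower and 0 to 12 higher genes, 0 to 12 lower and 0 to 22 higher sites. The higher differences in response ran from 0 to 2 against SRSF1 and from 1 to 7 against hnRNPA1.

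Some single genes changed direction. ARID2 in U2AF2 was at -0.21 when thinned. CHD1 (0.57), HDAC2 (0.17) and SUZ12 (0.44) turned by number of peaks, SMARCA2 (0.0765) and SUZ12 (0.0691) with total reads, and SMARCA2 (3.15) with peaks of at least 12 reads. In SRSF1, CHD4 was at 0.27 with peaks of at least 12 reads and ran from -0.62 to 0.16 when each library was left out, the last without control replicate 2, and RBBP7 ran from -0.55 to 0.34, the last without overexpression replicate 1. The difference against hnRNPA1 was -0.0003 for SMARCA2 when thinned and 0.012 for SMARCC1 with total reads. Depth limits SRSF1 most, where 18 of 59 members could be tested. Some U2AF2 calls held in few of the alternatives that tested them: CHD6 and SMARCA2 in 8 of 18, ASH1L and HDAC2 in 9 of 18. EED held in 9 of 17, HDAC9 in 9 of 15 and BMI1 in 10 of 18, compared with all 18 for EZH2.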

Other observations

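The listed number of U2AF2 peaks, not scaled for depth, was higher with overexpression in several members whose normalised reads fell. SUZ12 had 28, 26 and 65 peaks in the overexpression libraries, against 6, 9 and 9 peaks in the control libraries, although its normalised reads fell. Its unscaled reads rose as its peaks did, with 566, 532 and 793 in the overexpression libraries and 122, 205 and 230 in the control libraries. JARID2, whose normalised reads also fell, had 41, 37 and 108 peaks in the overexpression libraries, against 19, 11 and 27 peaks in the control libraries. CHD1 had 34, 31 and 60 peaks in the overexpression libraries, against 5, 7 and 14 peaks in the control libraries, and CHD2 had 46, 41 and 103 peaks in the overexpression libraries, against 20, 16 and 17 peaks in the control libraries. Unscaled reads were higher with overexpression in all 4 genes. With peak numbers scaled by size factors, the log2 change was positive in SUZ12 (0.44) and CHD1 (0.57) but not in JARID2 or CHD2. For all 4 genes the overexpression libraries were the deeper ones, and overexpression replicate 3 also had the lower peak minimum, so the peak numbers per library are given without a test.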
